A study of Rattus norvegicus with 12 samples.

Results

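Mitochondrial ribosomal proteins form the protein part of the mitoribosome, the ribosome inside mitochondria that translates the few respiratory chain and ATP synthase subunits encoded by mitochondrial DNA. All of them are encoded in the nucleus, made in the cytosol and imported, and they assemble with ribosomal RNA from the mitochondrial genome into a small subunit, which decodes the messenger RNA, and a large subunit, which joins the amino acids. Some have bacterial counterparts and others were gained in the mitochondrial lineage. Neurons depend on oxidative phosphorylation, for which the mitoribosome supplies core subunits.

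The 59 genes described here were chosen by name, with earlier results of these data known. Their symbols, after removal of the endings that mark predicted or mapped loci (38 genes), begin with Mrpl or Mrps followed by a number. They were 59 of the 22523 probes of an Illumina RatRef-12v1 BeadChip, each gene measured by 1 probe, with 36 genes named for the large subunit and 23 for the small subunit. RNA came from the whole hippocampus of 12 male rats of generation F15 at postnatal day 14, with 1 array per rat. The rats belonged to lines selectively bred on their locomotor response to a new environment, 6 bred High Responder (bHR) and 6 bred Low Responder (bLR) animals, and no treatment or transgene is given for either. Each bred line is a single selected population, so 6 rats stand for 1 line. All differences given are log2 differences, bHR minus bLR, after quantile normalisation of the arrays, tested with limma and adjusted by Benjamini-Hochberg over all probes.

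Mean raw signal ran from 453 to 1038 units, and the 3 dim arrays (453 to 488 units) were all bHR (rats 27, 29 and 39), so brightness is unevenly spread over the lines. The first principal component, 28.1% of the variance, set bHR rat 27 apart, and its mean correlation with the other arrays was 0.987 against at least 0.992 for the others. Of 7 hippocampal neuron markers, 6 were measured and all 6 lay above the median signal of all probes (log2 6.66). In bulk tissue, fewer cells of a type and less RNA per cell cannot be told apart.

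All 59 genes matched a locus of the RefSeq gene table for GRCr8 and lay on 17 chromosomes. The names do not all follow the structure of the ribosome. Mrps18a and Mrps30 are large-subunit proteins in mammalian mitoribosome structures, where they are called mL66 and mL65, and Mrps36 is now named Kgd4, a subunit of the 2-oxoglutarate dehydrogenase complex. Of the 59 genes, 32 carry numbers of the range used for bacterial ribosomal proteins and 27 carry higher numbers, which are mostly mitochondria-specific proteins, although Mrpl47 is the counterpart of bacterial L29. Pseudogene copies are annotated for 20 of them, up to 9 for Mrpl30, and a probe may read such copies where they are transcribed.

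RefSeq promoter windows (GRCr8) were found for 49 of the 59 genes. Each ran from 250 bases before to 50 after a start site of the gene, which is not always the outer end of its locus. For several genes, among them Mrpl48, Mrpl36, Mrpl22, Mrps31, Mrps33 and Mrps36, the annotated locus reaches further upstream and the window lies inside it. All 49 windows were kept in the counts below. They were searched on both strands for short forms of motifs whose factors are known regulators of nuclear genes for mitochondrial proteins in mammals: GCGCATGC for NRF1, CCGGAAGT for ETS factors such as GABPA, and AAGATGGC for YY1. The 7 windows below are shown because they belong to genes at both ends of the pattern described later. Mrpl54, Mrpl27 and Mrpl32 tracked the other members most closely, Mrps18c had the largest deviation in bHR rat 27, and Mrpl37, Mrps21 and Mrps30 tracked them least. They were picked after their expression values were seen. Each is written 5′ to 3′ on the gene's strand, and capitals mark the motif matches.
Mrpl54: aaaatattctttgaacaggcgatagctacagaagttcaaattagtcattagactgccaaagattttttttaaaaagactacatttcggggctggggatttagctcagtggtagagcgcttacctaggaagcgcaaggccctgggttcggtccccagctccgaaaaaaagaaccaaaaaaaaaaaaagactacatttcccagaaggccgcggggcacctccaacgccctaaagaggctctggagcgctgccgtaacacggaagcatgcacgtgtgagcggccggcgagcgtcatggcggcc
Mrpl27: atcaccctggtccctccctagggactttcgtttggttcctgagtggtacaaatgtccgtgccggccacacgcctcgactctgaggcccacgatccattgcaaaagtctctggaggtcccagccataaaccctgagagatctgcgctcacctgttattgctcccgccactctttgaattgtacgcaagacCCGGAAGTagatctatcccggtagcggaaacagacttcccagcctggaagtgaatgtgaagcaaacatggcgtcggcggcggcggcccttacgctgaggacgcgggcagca
Mrpl32: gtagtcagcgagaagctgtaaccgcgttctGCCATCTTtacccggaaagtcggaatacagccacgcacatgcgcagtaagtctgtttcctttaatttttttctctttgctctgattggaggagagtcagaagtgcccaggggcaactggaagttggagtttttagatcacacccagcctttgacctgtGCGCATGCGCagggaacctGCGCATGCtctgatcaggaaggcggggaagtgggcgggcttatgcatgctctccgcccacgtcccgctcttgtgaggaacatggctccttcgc
Mrps18c: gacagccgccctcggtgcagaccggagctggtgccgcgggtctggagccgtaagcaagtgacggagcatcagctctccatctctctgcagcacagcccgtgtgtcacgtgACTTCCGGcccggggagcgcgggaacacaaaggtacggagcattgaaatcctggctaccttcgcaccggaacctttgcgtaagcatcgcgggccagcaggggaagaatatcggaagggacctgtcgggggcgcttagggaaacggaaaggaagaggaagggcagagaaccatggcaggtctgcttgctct
Mrpl37: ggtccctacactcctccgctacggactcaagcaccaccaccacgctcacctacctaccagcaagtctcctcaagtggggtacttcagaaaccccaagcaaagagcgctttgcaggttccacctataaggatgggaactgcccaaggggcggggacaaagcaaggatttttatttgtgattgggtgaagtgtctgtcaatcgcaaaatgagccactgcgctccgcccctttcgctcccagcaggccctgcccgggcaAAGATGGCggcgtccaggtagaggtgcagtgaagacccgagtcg
Mrps21: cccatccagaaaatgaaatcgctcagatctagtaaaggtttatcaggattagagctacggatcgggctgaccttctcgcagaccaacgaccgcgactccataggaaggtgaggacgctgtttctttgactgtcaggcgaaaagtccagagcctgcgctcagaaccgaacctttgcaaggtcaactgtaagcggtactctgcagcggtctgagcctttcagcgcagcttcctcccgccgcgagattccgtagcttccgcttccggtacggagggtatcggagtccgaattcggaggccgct
Mrps30: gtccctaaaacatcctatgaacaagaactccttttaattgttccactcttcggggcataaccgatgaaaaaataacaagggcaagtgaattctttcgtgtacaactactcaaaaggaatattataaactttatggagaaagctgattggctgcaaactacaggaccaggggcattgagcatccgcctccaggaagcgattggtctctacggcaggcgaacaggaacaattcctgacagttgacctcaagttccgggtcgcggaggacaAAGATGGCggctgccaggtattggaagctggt

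Mrpl32, whose protein in mammals is matured by the m-AAA protease of the inner membrane, lies at chr17:55260401-55260700 on the plus strand. Its window held the NRF1 letters, including the full palindrome in which both strands match, and 1 YY1 match. Mrpl27 (chr10:80092095-80092394, plus strand) is the counterpart of bacterial L27, which sits at the peptidyl transferase centre, and its window held 1 ETS match. Mrps18c (chr14:9122857-9123156, minus strand) is one of the vertebrate copies of bacterial S18, and it also held 1 ETS match. The windows of Mrpl37 (chr5:127074918-127075217, minus strand) and Mrps30 (chr2:52195855-52196154, minus strand) each held 1 YY1 match just after the start site on which the window is placed. For Mrps30 the annotated locus reaches further upstream, to position 52196136, so most of its window lies inside the locus. No motif was found in the windows of Mrpl54 (chr7:9103275-9103574, plus strand) and Mrps21 (chr2:186103302-186103601, minus strand).

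Over the 49 windows, the YY1 letters were present in 14 (28.6%), against 3.7% of the 21842 windows of all protein-coding genes. The ETS letters were in 8 (16.3% against 4.8%) and the NRF1 letters in 5 (10.2% against 3.1%). At least 1 of the 3 motifs was in 23 windows (46.9% against 10.8%). By subunit, 15 of 29 windows of large-subunit genes and 8 of 20 of small-subunit genes held a motif. The median GC content was 56.0% in these windows and 55.0% in all, and a match here is a description of letters, not a measured binding site.

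A further shared feature was position next to a divergent gene. Of the 49 genes, 15 (30.6%) had a protein-coding neighbour on the opposite strand whose start lay within 1000 bases, against 7.0% of all protein-coding genes. Both genes of a pair were measured for 13 pairs. No neighbour passed an unadjusted p of 0.05 between the lines (limma), and in 8 of the 13 pairs the partners correlated positively over the 12 rats (median r 0.29, and 0.16 without bHR rat 27). The highest value was between Mrpl32 and Psma2, a proteasome subunit whose start lies 210 bases away (r = 0.90, and 0.52 without bHR rat 27). Mrpl40 and Hira, a histone chaperone 186 bases away, ran in opposite directions (r = -0.70, and -0.39 without bHR rat 27). Mrpl46 shares its divergent start region with Mrps11, 234 bases away, so 2 mitoribosome genes face each other there (r = 0.41, and 0.16 without bHR rat 27). The head-to-head comparison was chosen after results of these data had been seen.

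**Figure D1:**
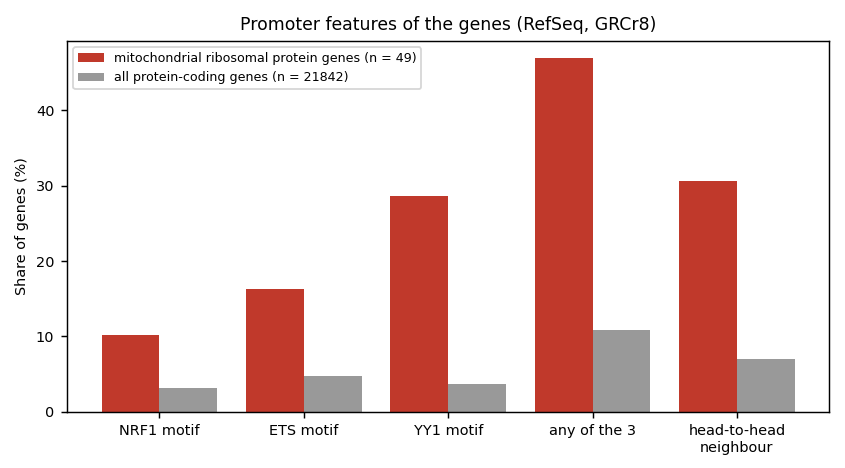
Share of genes (%, vertical axis) with each motif in the promoter window, with any of the 3 motifs, or with a protein-coding head-to-head neighbour, for the 49 mitochondrial ribosomal protein genes with a window and for all 21842 protein-coding genes. The YY1 bars differ most among the single motifs, 28.6% against 3.7%.

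Between the lines, no mitochondrial ribosomal protein gene differed beyond the spread between rats. None of the 59 passed an adjusted p of 0.05, which 0.0888% of all probes did. None passed an unadjusted p of 0.05 either, against 6.02% of all probes. In no gene did the values of the lines fail to overlap, against 0.391% of all probes. Values were lower in bHR for 33 genes and higher for 26, while 49.1% of all probes were lower in bHR. The median difference was -0.02 over the 59 genes and 0.00 over all probes. It depended on the scaling: with arrays centred on their medians in place of quantile normalisation, it was -0.33 for the large-subunit and -0.29 for the small-subunit genes, and still no gene passed the adjusted threshold. With a median standard error of 0.10, 56 of the 59 intervals (95%) lay within 0.5 of 0, so for those genes differences of more than 0.5 in either direction lay outside the interval.

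**Figure D2:**
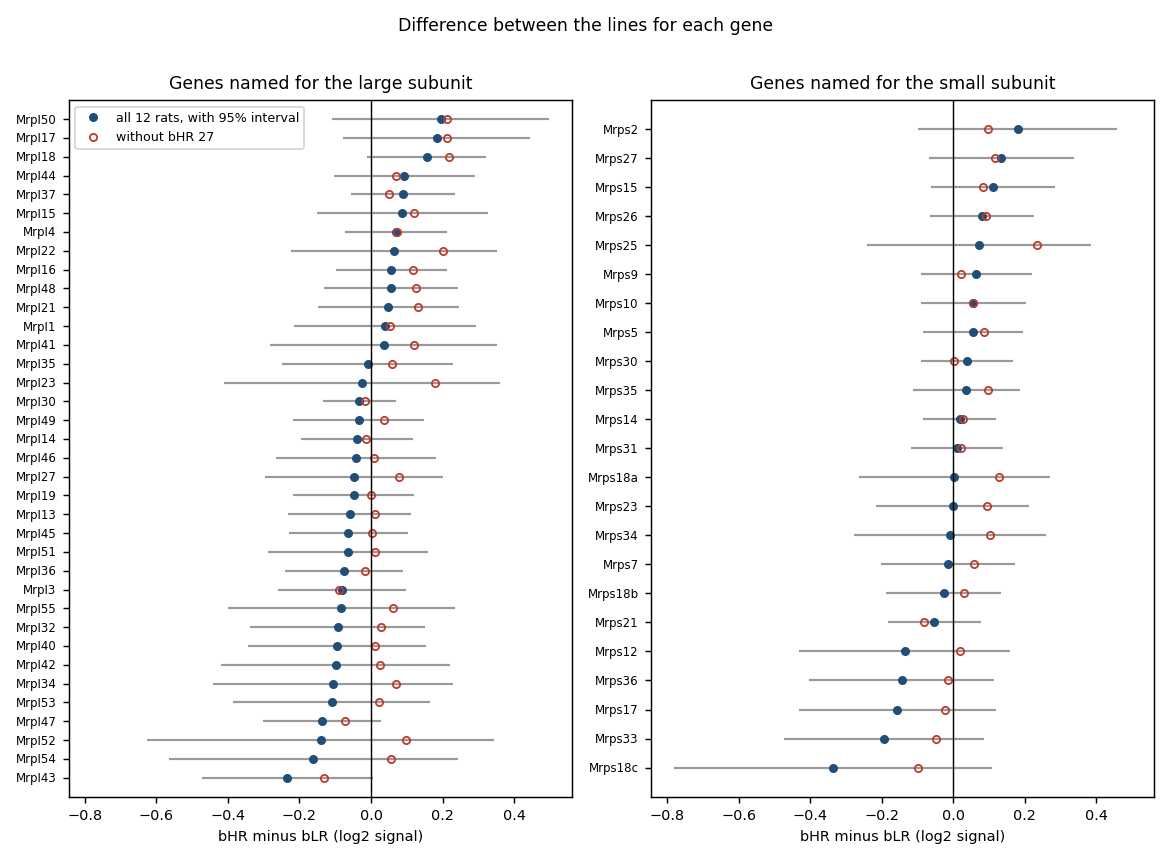
Difference between the lines (bHR minus bLR, log2 signal, horizontal axis) for each gene, large-subunit names on the left and small-subunit names on the right. Filled points and bars are the limma estimate and its 95% interval from all 12 rats, and open points are the estimates without bHR rat 27. Every bar crosses 0, and most open points lie to the right of the filled ones.

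Among the large-subunit genes, 23 of 36 were lower in bHR, with a median difference of -0.04 and a range of -0.23 to +0.19. The lowest p belonged to Mrpl43, a mitochondria-specific protein. Its log2 signal had a low of 10.37, a median of 10.97 and a high of 11.12 in bHR, and 10.88, 11.12 and 11.34 in bLR. The ranges overlapped, with bHR rat 27 at the bottom. The difference was -0.23 ± 0.11 (SE, n = 6 per line; 1.18-fold lower, limma adjusted p = 0.83, exact permutation p = 0.071), and it was -0.13 without bHR rat 27.

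Mrpl18, a protein of the bacterial L18 family, gave the second lowest p and the opposite sign. Its values were 6.09, 6.41 and 6.55 (lowest, median, highest) in bHR and 6.01, 6.25 and 6.35 in bLR, with 4 bHR rats above every bLR rat. The difference was +0.16 ± 0.08 (limma adjusted p = 0.83, exact p = 0.091). Its signal lay under the median of all probes, as did those of Mrpl30, Mrps21 and Mrps31, so these 4 genes were measured on dim probes. Mrpl47 followed at -0.14 ± 0.08, from 9.58 to 10.09 in bHR and 9.94 to 10.19 in bLR.

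Mrpl17, related to bacterial L17, ran from 9.29 to 9.99 in bHR (median 9.58) and from 8.98 to 9.65 in bLR (median 9.49), a difference of +0.18 ± 0.12. Mrpl50 gave the highest value of all members, +0.19 ± 0.14, but its rats spread widely in both lines, from 8.79 to 9.67 in bHR and from 8.81 to 9.42 in bLR. Mrpl37, a mitochondria-specific protein, ran from 11.26 to 11.62 in bHR and from 11.23 to 11.45 in bLR (+0.09 ± 0.07). Mrpl4, whose bacterial counterpart lines the exit tunnel, differed by +0.07 ± 0.07, and Mrpl44, a protein with an RNase III fold, by +0.09 ± 0.09. None of these 5 values passed an unadjusted p of 0.05 (limma).

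Among the small-subunit genes, 10 of 23 were lower in bHR, with a median difference of +0.01 and a range of -0.34 to +0.18. Mrps18c had the lowest p. Its values were 9.18, 10.57 and 10.77 (lowest, median, highest) in bHR against 10.60, 10.72 and 10.76 in bLR. A single rat, bHR 27, made the low end, and the other 5 bHR rats lay between 10.42 and 10.77. The difference was -0.34 ± 0.21 (limma adjusted p = 0.87, exact p = 0.12) and became -0.10 without that rat.

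Mrps33 and Mrps17 had the same shape. Mrps33, a mitochondria-specific protein, read 11.45 in bHR rat 27, 12.24 to 12.44 in the other bHR rats and 12.34 to 12.45 in bLR (-0.19 ± 0.13). Mrps17, a counterpart of bacterial S17, read 9.67 in that rat, 10.33 to 10.59 in the other bHR rats and 10.36 to 10.67 in bLR (-0.16 ± 0.13). Mrps36, which is not a ribosomal protein under its current name Kgd4, read 11.51 in bHR rat 27, 12.17 to 12.39 in the others and 12.13 to 12.41 in bLR (-0.14 ± 0.12).

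Other small-subunit genes were higher in bHR by amounts within their spread. Mrps2, a counterpart of bacterial S2, ran from 9.04 to 9.76 (median 9.33) in bHR and from 8.84 to 9.57 (median 9.13) in bLR, a difference of +0.18 ± 0.13. Mrps27, a pentatricopeptide repeat protein, differed by +0.13 ± 0.09, Mrps15 by +0.11 ± 0.08 and Mrps26 by +0.08 ± 0.07. The renamed large-subunit proteins were close to 0: Mrps18a differed by 0.00 ± 0.13 and Mrps30 by +0.04 ± 0.06. Mrps18a was at +0.13 without bHR rat 27 and at +0.24 on the 9 arrays that were not dim (limma adjusted p = 0.69).

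Large against small, the median difference of the large-subunit genes was 0.05 lower than that of the small-subunit genes (-0.04 against +0.01). This order was not stable. Without bHR rat 27 the large and small medians were 0.054 and 0.056, and on the 9 brighter arrays 0.064 and 0.057. Taken per rat, the mean log2 signal of the large-subunit genes minus that of the small-subunit genes ran from -0.26 to -0.04 in bHR and from -0.19 to -0.06 in bLR. The lines overlapped throughout, and bHR rats 27 and 39 held both ends. The offset itself has no meaning, since different probes are not on one scale, and only its spread between rats can be read. Moving Mrps18a and Mrps30 to the large subunit and leaving out Mrps36 changed no call. By number class, 17 of 32 genes in the bacterial range and 16 of 27 with higher numbers were lower in bHR, with medians of -0.01 and -0.03.

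**Figure D3:**
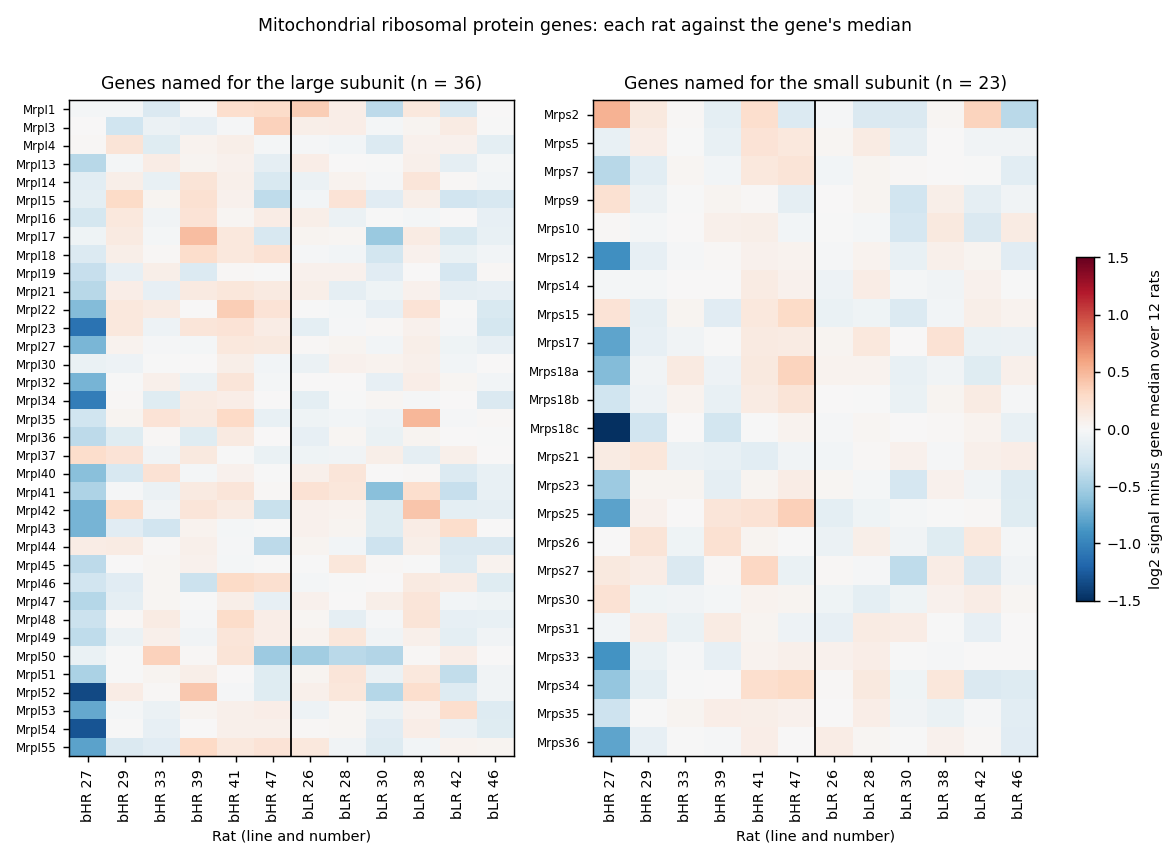
Log2 signal of each gene in each rat minus the gene's median over the 12 rats (colour scale, blue lower and red higher), with genes in rows, rats in columns and a line between bHR and bLR. The column of bHR rat 27 is blue for most genes, with the deepest values for Mrps18c, Mrpl52 and Mrpl54, while Mrps2, Mrpl37, Mrps30 and Mrps9 are red there.

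Much of what these genes shared came with 1 animal. In bHR rat 27, 36 of the 59 genes had their lowest value of all 12 rats, against 15.3% of all probes and 18.8% of probes above the median signal, and this held for 24 of 36 large-subunit and 12 of 23 small-subunit genes. The median deviation from the mean of the other 5 bHR rats was -0.40 over the 59 genes (-0.42 large, -0.34 small), against +0.01 over all probes and +0.04 over probes above the median signal. In 22 genes it was below -0.5, against 3.82% of all probes and 7.45% of probes above the median signal. By Dixon's gap within the line, bHR rat 27 stood apart at the low end in 17 genes, against 2.23% of all probes and 4.02% of probes above the median signal. This count was made after the rat had been seen to stand apart, so it describes that array and is not a test between the lines. Why this rat differed was not tested.

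The largest deviations in bHR rat 27 were at Mrps18c (-1.43), Mrpl52 (-1.43) and Mrpl54 (-1.30). Mrpl52, a mitochondria-specific protein with the largest SD over the 12 rats (0.45), read 9.53 in this rat, 10.71 to 11.29 in the other bHR rats and 10.45 to 11.13 in bLR. Mrpl54, also mitochondria-specific, read 9.87 there, 11.04 to 11.24 in the other bHR rats and 10.98 to 11.27 in bLR. In both genes this rat lay below all 11 others and the other rats overlapped between the lines.

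Mrpl23 and Mrpl22, whose bacterial counterparts ring the exit tunnel, went the same way. Mrpl23 read 9.25 in bHR rat 27 against 10.29 to 10.56 in the other bHR rats, and Mrpl22 read 10.05 against 10.70 to 11.07. Mrpl34 read 9.65 against 10.50 to 10.80, and Mrps12, the counterpart of the decoding-centre protein S12, read 10.61 against 11.40 to 11.59. Mrps25 read 9.64 against 10.43 to 10.79.

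Not every member was low in that rat. Mrps2 had its highest value of all rats there, 0.51 above the mean of the other bHR rats. So did Mrps9 (+0.27), Mrpl37 (+0.22) and Mrps30 (+0.22). These were the 4 members highest in that rat, against 18.2% of all probes and 23.2% of probes above the median signal. Mrps15 was 0.18 above the mean of the other bHR rats. Over the 59 genes, the deviation in this rat correlated weakly with gene length (Spearman rho 0.32) and with signal (rho -0.36). Genes share the array and are not independent, so no p is given. The 22 genes below -0.5 had a median gene length of 4539 bases, and the other 37 genes 8765 bases. The same correlation with gene length over 9825 bright probes with a known locus was also 0.32, so it was not particular to these genes. With signal, the correlation over those bright probes was +0.05. The -0.36 is not on a like set, since it covers all 59 genes, of which only 55 lay above the median signal. Gene length was examined after the values had been seen.

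**Figure D4:**
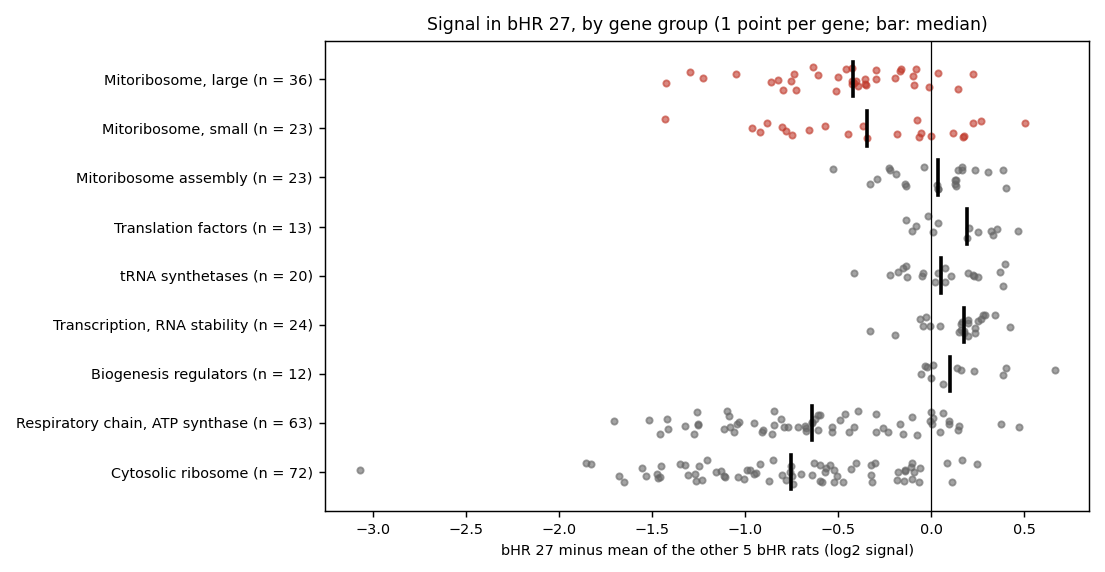
Log2 signal in bHR rat 27 minus the mean of the other 5 bHR rats (horizontal axis), 1 point per gene, by gene group, with bars at the medians. The medians are -0.42 and -0.34 for the mitoribosome subunits, -0.75 for the cytosolic ribosome and -0.64 for respiratory chain and ATP synthase, and 0.04 to 0.19 for the other 5 groups.

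The same rat was low for the most similar gene groups. Cytosolic ribosomal protein genes (72 measured) had a median deviation of -0.75 there, and genes for nuclear-encoded respiratory chain and ATP synthase subunits (63 measured) one of -0.64. The 6 mitoribosome proteins with other symbols had a median deviation of -0.38, with 3 below -0.5, against 3.82% of all probes. The genes that assemble, feed and regulate the mitoribosome were not low by their medians. Their median deviation was +0.04 for assembly factors, +0.19 for translation factors, +0.06 for tRNA synthetases, +0.18 for transcription and RNA stability factors and +0.10 for regulators of mitochondrial biogenesis. Still, 6 of the 23 measured assembly factors had their lowest value of all rats in bHR rat 27. That was 26.1%, against 15.3% of all probes and 18.8% of probes above the median signal.

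Other features of bHR rat 27 stood beside these values. Choroid plexus markers (5 of 5 measured) had a mean log2 signal of 6.87 in this rat and 7.20 in bHR rat 41, against at least 8.27 in the other 10. Ttr, the transthyretin gene of the choroid plexus, read 7.98 and 9.22 in these rats and at least 13.36 in the others. In bHR rat 41, the 59 genes had their highest mean of any rat, 10.25. There 13 of them had their highest value, against 7.86% of all probes and 8.8% of probes above the median signal. Mean marker signal was higher in bHR rat 27 than in any other rat for hippocampal neurons (10.15 against at most 9.93) and neurons (11.68 against at most 11.50). It was also higher for astrocytes (12.44 against at most 12.18) and oligodendrocytes (11.69 against at most 11.66). Of the 3 measured neuron markers, Snap25 and Syt1 were highest there, but Rbfox3 read 6.90, its lowest value in bHR. The 3 measured oligodendrocyte markers deviated from the mean of the other 5 bHR rats by -0.26 to +0.51 (median +0.33). The microglia marker mean was lower there than in any other rat (8.69 against at least 9.07), and blood markers had their lowest mean there (at least 11.32 in the other rats). Of the 3 measured markers of each, 2 had their lowest value there. Deviations from the other 5 bHR rats ran from -0.88 to -0.05 for microglia and from -1.04 to -0.11 for blood. Bioanalyzer values were not used here. The part of tissue composition, array brightness and RNA quality in the low values was not tested.

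Without bHR rat 27 the balance between the lines turned. Then 11 of 59 genes were lower in bHR, against 49.6% of all probes, and the median difference was +0.06 (+0.05 large, +0.06 small). None passed the adjusted threshold, and 4 passed an unadjusted p of 0.05, all higher in bHR, against 6.21% of all probes. These were Mrps25 (+0.23), Mrpl18 (+0.22), Mrpl22 (+0.20) and Mrpl23 (+0.18), with limma adjusted p of at least 0.53. With only the 9 brighter arrays (3 bHR and 6 bLR), 12 genes were lower in bHR, against 49.2% of all probes, and the median was again +0.06. There 9 genes passed an unadjusted p of 0.05, 8 higher and 1 lower (Mrps21), against 5.72% of all probes, and none passed after adjustment. The per-rat means show the overlap: the 59-gene mean was 9.75 in bHR rat 27, 10.12 to 10.25 in the other 5 bHR rats and 10.02 to 10.21 in the 6 bLR rats. Among bLR rats, rat 30 had the lowest mean, 10.02, and held the lowest value of 10 genes, against 8.09% of all probes.

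**Figure D5:**
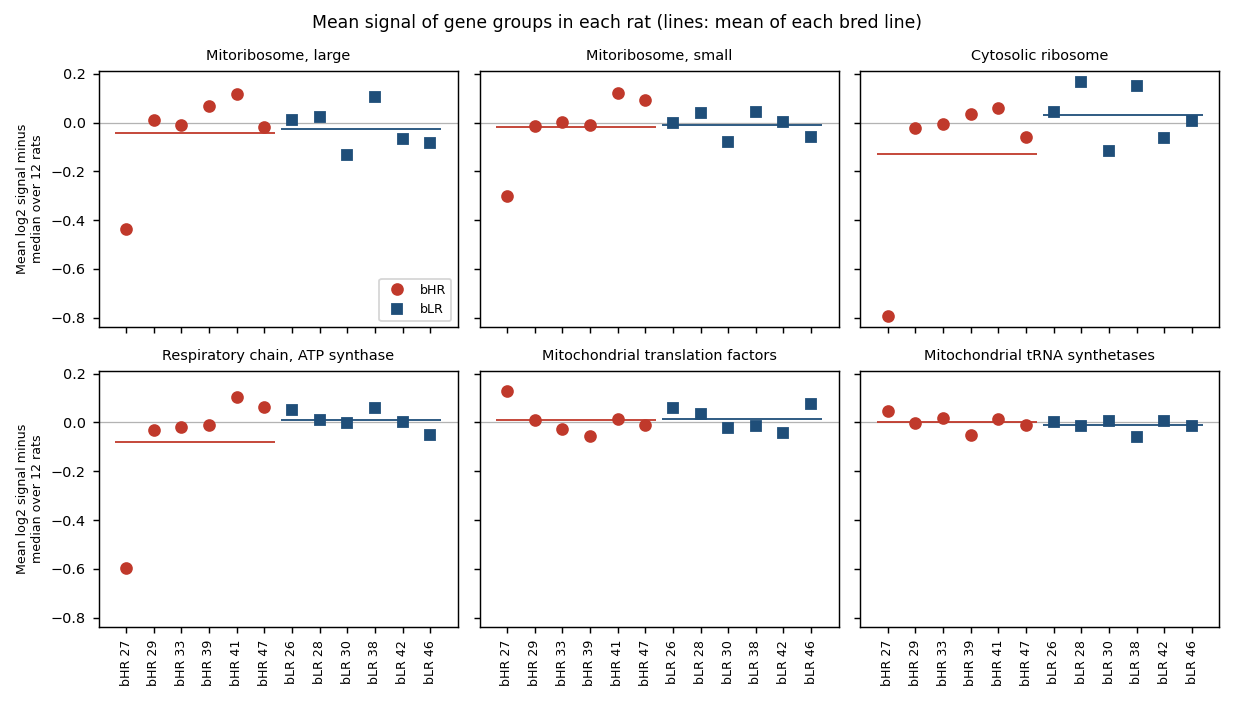
Mean log2 signal of 6 gene groups in each rat, minus the group's median over the 12 rats (vertical axis), with circles for bHR, squares for bLR and lines at each line's mean. bHR rat 27 is lowest for both mitoribosome subunits, the cytosolic ribosome and the respiratory chain and ATP synthase, and highest for the translation factors and tRNA synthetases.

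How far the members moved together was described by correlations over the 12 rats, which share 12 arrays and their normalisation and are given with no p. The median r over the 1711 pairs was 0.38, at 0.47 among large-subunit genes, 0.11 among small-subunit genes and 0.30 between them. Without bHR rat 27 these became 0.22, 0.23, 0.24 and 0.20, so the gap between the subunits was not there in the other 11 rats. The mean of the large-subunit genes correlated with that of the small-subunit genes at 0.92, and at 0.70 without that rat. The 59-gene mean correlated with the mean of cytosolic ribosomal proteins at 0.93 (0.67 without it) and with that of respiratory chain and ATP synthase subunits at 0.93 (0.70 without it).

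The members closest to the mean of the others were Mrpl54 (r = 0.95, and 0.89 without bHR rat 27), Mrpl27 (0.95 and 0.77) and Mrpl32 (0.94 and 0.71). Those farthest from it were Mrpl37 (-0.65 and -0.36), Mrps21 (-0.61 and -0.65) and Mrps30 (-0.53 and +0.14). The place of Mrps30 at the low end thus came from bHR rat 27, while Mrps21, on a dim probe, stayed there without it. Mrps30 ran from 11.45 to 11.72 in bHR and from 11.36 to 11.62 in bLR.

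The genes around the mitoribosome gave a similar picture between the lines, with no gene of 6 lists past the adjusted threshold. The lists and their genes were chosen with earlier results of these data known. Of 23 measured assembly factors (27 in the list), 1 passed an unadjusted p of 0.05: Dhx30, an RNA helicase of mitoribosome assembly, at +0.15 ± 0.07 (limma adjusted p = 0.83, exact p = 0.067). The next in that list, Ngrn at +0.11 ± 0.06 and Mrm1, an rRNA methyltransferase, at -0.12 ± 0.07, did not. Of 20 measured tRNA synthetase genes (22 in the list), 4 passed the unadjusted threshold, 3 lower and 1 higher in bHR. Of all probes, 6.02% passed it. Mars2, the mitochondrial methionyl-tRNA synthetase, was at -0.11 ± 0.05 (limma adjusted p = 0.79, exact p = 0.0043) on a probe under the median signal. Gatc, a subunit of the amidotransferase that makes glutaminyl-tRNA in mitochondria, was at -0.12 ± 0.05. Kars1, which serves both cytosol and mitochondria, was at +0.20 ± 0.08.

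In the other lists no gene passed an unadjusted p of 0.05 (limma), against 6.02% of all probes. These lists held 6 mitoribosome proteins with other symbols and 13 measured translation factors (20 in the list). They also held 24 transcription and RNA stability factors (26) and 12 biogenesis regulators (13). The lowest p among them belonged to Mtrf1l, a mitochondrial release factor, at +0.11 ± 0.06, Trit1, a tRNA modifying enzyme, at +0.14 ± 0.07, Ppargc1b, a coactivator of mitochondrial biogenesis, at -0.10 ± 0.06, and Ptcd3, the mitoribosome protein mS39, at +0.17 ± 0.10. Under other symbols, 3 probes belong to genes that now carry Mrpl or Mrps names. Values were near 0 for Mrps11 (-0.01 ± 0.09) and Mrpl28 (+0.02 ± 0.10). Mrpl58, a release factor built into the large subunit, was at -0.15 ± 0.10 and is also 1 of the 6 mitoribosome proteins above. The comparison groups leaned lower in bHR with all 12 rats, while 49.1% of all probes were lower. This held for 60 of 72 cytosolic ribosomal protein genes (median -0.09) and 52 of 63 respiratory chain and ATP synthase genes (median -0.09). Past the adjusted threshold were 1 and 0 of these genes, against 0.0888% of all probes. Without bHR rat 27, 29 of 72 and 26 of 63 were lower, against 49.6% of all probes, with medians of +0.01 for both.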

How the data were processed

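The average bead signals were read from the scanner files by the authors with limma 3.28.21, per the submitters' processing notes, and the deposited intensity table holds them on a linear scale, with no normalisation between arrays. The authors' deposited log2 table holds log2 signal after quantile normalisation, per the series' design text. No source used here gives a background correction.

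From the deposited intensities, log2 values of all 22523 probes were computed and the 12 arrays were quantile normalised, with no background correction. The result differed from the authors' log2 values by a median of 0.0004 and at most 0.254. The bred line was the sole factor of a linear model per probe (lmFit and eBayes, limma 3.58.1, R 4.3.3). P-values are two-sided and adjusted by Benjamini-Hochberg over all probes, with a threshold of 0.05. Exact permutation p-values for single genes used all 924 assignments of the rats, with a smallest possible p of 0.0022. Fits without a rat or on the 9 brighter arrays were normalised again. Intervals are at 95%. A probe was above the median signal where either line's mean passed log2 6.66. The fit was tested on simulated data.

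The members and lists were chosen with earlier results of these data known. Each gene had 1 probe, so the number of rats limits the precision. The text names the 8 genes with the lowest p in each subunit list, the 3 closest to and the 3 farthest from the mean of the others, the 3 with the largest SD, genes with a rat apart by Dixon's gap (0.625 for 6 rats), Mrps18a, Mrps30 and Mrps36, and up to 3 genes of each pathway list. Mrps9, Mrpl46, Mrpl41, Mrpl40, Mrpl30, Mrps31, Mrps11, Mrpl28 and Gatc were named after their values were seen. The values of 1 pathway gene are not reported here. Symbols were matched to RefSeq (GRCr8), whose promoter windows were read on the gene's strand. Each rat is a separate animal, and rat numbers are shared by no pair of rats. Alternatives were median centring, no scaling, normexp with an offset of 50, the authors' values, bright probes only, a variance trend, array weights, the brighter arrays alone or as a block, leaving out each rat, another threshold and other gene naming.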

Additional observations from a re-analysis of the deposited data

Results flagged for a closer look

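Each gene and each subunit mean was examined in each line for 1 rat standing apart by Dixon's gap, 124 groups in all, of which chance would set apart about 1 in 20. In 22 groups a rat stood apart, and in 20 of them it was bHR rat 27 at the low end, so these are not independent. Its mean log2 signal was 9.75 over all 59 genes (other bHR rats 10.12 to 10.25), 9.65 over the large-subunit genes (10.06 to 10.20) and 9.90 over the small-subunit genes (10.19 to 10.33).

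In the large subunit this rat stood apart in 9 genes: it read 9.87 for Mrpl54, 9.53 for Mrpl52, 9.25 for Mrpl23, 9.65 for Mrpl34, 10.05 for Mrpl22, 10.10 for Mrpl53, 10.89 for Mrpl27, 9.41 for Mrpl32 and 10.63 for Mrpl45. In the small subunit it did so in 8 genes: it read 9.18 for Mrps18c, 9.64 for Mrps25, 10.61 for Mrps12, 11.45 for Mrps33, 9.67 for Mrps17, 11.51 for Mrps36, 10.24 for Mrps23 and 11.18 for Mrps35. The cause was not tested.

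In 2 genes another rat stood apart. Mrpl44 read 9.22 in bHR rat 47, against 9.60 to 9.74 in the other bHR rats. Mrpl35, a counterpart of bacterial L35, read 11.29 in bLR rat 38, against 10.71 to 10.81 in the other bLR rats.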

How the results depend on the processing

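No member passed an adjusted p of 0.05 under any alternative run, and none passed 0.10 in the main setting. The large minus small median difference moved by less than its SD between rats in the main setting under every alternative run. That SD is a wide measure, since the difference was nearly lost without bHR rat 27 (medians 0.054 large, 0.056 small). On the 9 brighter arrays it changed sign (0.064 large, 0.057 small). The number past an unadjusted p of 0.05 (limma), 0 in the main setting, was 16 with each array centred on its median (15 lower in bHR; 24.3% of all probes passed there), 34 with no scaling between arrays (all lower; 43.8% of all probes), 2 with a variance trend and robust estimation, 1 with array weights, 9 on the 9 brighter arrays (8 higher), 2 with brightness as a block, and 0 to 4 when 1 rat was left out, 4 without bHR rat 27 (all higher) or bHR rat 47 (2 higher). The medians, -0.04 for the large and +0.01 for the small subunit, were -0.33 and -0.29 with median centring and -0.53 and -0.49 with no scaling, against all-probe medians of -0.02 and -0.22. Relative to all probes both gave -0.31 and -0.28, so the direction of the members depended on the scaling, and the 3 dim arrays were all bHR. Without bHR rat 27 both medians were above 0 (+0.05 and +0.06). For 33 named members over 21 settings, 691 values held 0 calls. Counted separately, 89 of them had the opposite sign and 57 moved by over 1 SD between rats. For 18 named pathway genes, 374 values held 0 calls, 21 had the opposite sign and 31 moved by over 1 SD. The smallest limma adjusted p in both sets was 0.092. Adding the 3 genes whose current symbols are Mrpl or Mrps names was chosen after seeing the data and changed no call. Averaging the probes of a gene was not run, since each member has 1 probe. No paired analysis was possible because no rat number occurs in both lines. Detection p-values were not used here, so signal over background is known only as rank among all probes.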

Other observations

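Among the bLR rats, rat 30 held the lowest value of 10 members, against 8.09% of all probes and 9.24% of probes above the median signal. Its pattern was described only after the values had been seen. Mrpl17 read 8.98 in this rat against 9.30 to 9.65 in the other bLR rats, and Mrps27 read 8.83 against 8.99 to 9.31. Mrpl41, a large-subunit protein, read 8.56 there against 8.84 to 9.44. In contrast Mrpl37 read 11.45 in rat 30, its highest value in bLR. The mean of the 59 genes was 10.02 in this rat against 10.06 to 10.21 in the other bLR rats, and the lines overlapped with or without it.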
